A study of Homo sapiens with 6 samples.

Results

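The miRNAs hsa-miR-21-5p, hsa-miR-224-5p, hsa-miR-182-5p and hsa-miR-183-5p (written below without the species prefix), known as raised in hepatocellular carcinoma, were followed in small RNA libraries of extracellular vesicles. They were chosen by name, with earlier results of these data known. All 4 were found among the 1007 miRNA names of the count table. The vesicles (exosomes) were pelleted from the culture medium of MHCC97H, an established line of human liver cancer cells that metastasises readily. The 3 control libraries came from cells without xanthatin. The 3 xanthatin libraries came from cells given xanthatin, a plant sesquiterpene lactone, for 24 h at 4 µmol/L. Both groups came from the same line, in medium with 5% fetal bovine serum and 5% exosome-depleted serum. The protocol gives DMSO, the solvent of xanthatin, at 0.5% in all experiments. No library of non-cancer liver was compared, so the data hold no check of whether these miRNAs are raised in the tumour line. The labels do not say whether the 3 libraries of a group came from separate cultures, so p-values measure the spread between these libraries, which may be technical.

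A mature miRNA guides an Argonaute protein to messenger RNAs that pair with its seed, the bases near its 5′ end, and lowers their output. miR-21-5p represses growth-restraining transcripts such as PDCD4 and is high in many tumours. miR-224-5p is among the miRNAs most often reported as raised in liver tumours. miR-182-5p and miR-183-5p are cut from one shared precursor transcript with miR-96-5p, a cluster best known from sensory hair cells, and miR-182-5p represses FOXO transcription factors.

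The mature sequences, from RefSeq (GRCh38.p14), are shown with the seed (bases 2 to 8) in capitals, because they show which of the 4 miRNAs could be mistaken for each other when reads are counted.
miR-21-5p: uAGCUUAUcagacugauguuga
miR-224-5p: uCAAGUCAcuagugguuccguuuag
miR-182-5p: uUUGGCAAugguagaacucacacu
miR-183-5p: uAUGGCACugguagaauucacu
miR-96-5p: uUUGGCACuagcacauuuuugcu
The 4 seeds differ from each other, so the 4 miRNAs are not one seed family. No other miRNA of the table with a RefSeq sequence (441 of 497 known names) shared a seed with any of them. Compared base by base from the 5′ end without gaps, miR-182-5p and miR-183-5p had the same base at 18 of 22 positions, and within the seed they differed by U2A and A8C (miR-182-5p first, positions counted from the 5′ end). miR-182-5p and miR-96-5p differed within the seed only by A8C. The other 5 pairs among the 4 miRNAs matched at 5 or 6 positions. How many mismatches the counting of reads allowed is not given in the sources used here, so an exchange of reads between miR-182-5p and miR-183-5p was not tested.

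In the GENCODE release 29 annotation (GRCh38), the precursor of miR-21-5p lies on chromosome 17 from 59841266 to 59841337 on the plus strand, in an exon of a retained-intron transcript of VMP1, a gene of autophagy. The precursor of miR-224-5p lies on chromosome X from 151958578 to 151958658 on the minus strand, within GABRE, a GABA receptor subunit gene, and in an exon of one of its retained-intron transcripts. The precursors of miR-182-5p (129770383 to 129770492) and miR-183-5p (129774905 to 129775014) lie on the minus strand of chromosome 7. They span 4632 bp from end to end, overlap no other annotated gene, and have NRF1 as the nearest protein-coding gene. The 4 mature miRNAs are all the 5p arm of their precursor, all begin with U, and are 36.4% to 44.0% G and C. Among the 160 tested known names with a sequence, 50.0% began with U and the median G and C content was 52.2%. Of the known names tested, 50.0% were 5p arms. Neither GGAG nor CCCU, short motifs reported for sorting into vesicles, occurred in any of the 4, searched on the given strand. GGAG occurred in 15.4% and CCCU in 10.4% of the 441 known names with a sequence.

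The control libraries held 63965 to 80088 miRNA counts and the xanthatin libraries 204520 to 267956, so depth differed between the groups in one direction. Levels are therefore given as CPM, the count relative to the library's miRNA total after scaling of that total by the TMM method. The TMM factors were 1.08 to 1.17 in control and 0.880 to 0.898 in xanthatin libraries. On this scale all 4 miRNAs were higher in xanthatin libraries. By edgeR's quasi-likelihood test, 4 of 4 were called higher (adjusted p under 0.05), beside 13.4% of the 254 tested miRNAs called higher and 16.9% called lower. For each of the 4, all 3 xanthatin libraries lay above all 3 controls, as they did for 25.2% of the tested miRNAs. Because the 4 were chosen with earlier results of these data known, these shares are no test of the set. More copies in each vesicle and more vesicles that carry a miRNA cannot be told apart in such bulk libraries.

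miR-21-5p was the least abundant of the 4 and had the largest change. Control replicates 1 to 3 held 273, 163 and 190 counts of it, and xanthatin replicates 1 to 3 held 1367, 1593 and 1216. These counts correspond to 3160, 2059 and 2528 CPM in control and 6472, 6623 and 6754 CPM in xanthatin libraries. The lowest xanthatin library stood 2.05 times above the highest control, and the control libraries were the more variable group. The level rose from 2582 ± 552 CPM (SD, n = 3) to 6616 ± 141 CPM (SD, n = 3), a log2 fold change of 1.36 (SE 0.19) with edgeR's adjusted p = 0.00347. Its rank among all rows of the table was 41, 51 and 45 in control libraries and 26, 25 and 27 in xanthatin libraries.

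miR-224-5p was the most abundant of the 4 in every library, and it stood among the 10 highest rows of each. Its counts were 2547, 1857 and 1904 in the controls and 10780, 11693 and 7862 in the xanthatin libraries. In CPM it was at 29479, 23463 and 25335 in control and at 51037, 48612 and 43665 in xanthatin libraries. Xanthatin replicate 3 was the lowest of its group and still stood 1.48 times above the highest control, replicate 1. The log2 fold change was 0.87 (SE 0.12, edgeR's adjusted p = 0.00299), a fold of 1.83. Its rank moved from 9, 10 and 10 in control to 6, 5 and 7 in xanthatin libraries.

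miR-183-5p varied least between replicates. Its counts were 472, 457 and 416 in the controls and 2477, 2864 and 2093 in the xanthatin libraries, which correspond to 5463, 5774 and 5535 CPM and to 11727, 11907 and 11624 CPM. Both groups were tight and far apart, with the lowest xanthatin library 2.01 times above the highest control. The level rose from 5591 ± 163 to 11753 ± 143 CPM (SD, n = 3 each), a log2 fold change of 1.07 (SE 0.11, edgeR's adjusted p = 9.27e-04). The coefficient of variation was 2.91% in control and 1.22% in xanthatin libraries. Counting alone would give about 4.72% and 2.01% at the mean counts of these groups, so the spread was no larger than counting noise.

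miR-182-5p, from the same cluster, was more variable, and its rise was less certain. Its counts were 529, 598 and 693 in the controls and 2559, 3239 and 1858 in the xanthatin libraries. In CPM the control libraries were at 6123, 7556 and 9221 and the xanthatin libraries at 12115, 13466 and 10319. The groups came close to each other, since xanthatin replicate 3 stood 1.12 times above control replicate 3. The level rose from 7633 ± 1551 to 11967 ± 1578 CPM (SD, n = 3 each), a log2 fold change of 0.65 (SE 0.19, edgeR's adjusted p = 0.0459). The coefficient of variation of 20.3% in control and 13.2% in xanthatin libraries compares with 4.06% and 1.98% from counting alone. The call was lost when any one of the 6 libraries was left out (adjusted p = 0.0554 to 0.153, log2 fold change 0.49 to 0.86). With library totals only it was lost at a log2 fold change of 0.30 (adjusted p = 0.342).

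**Figure D1:**
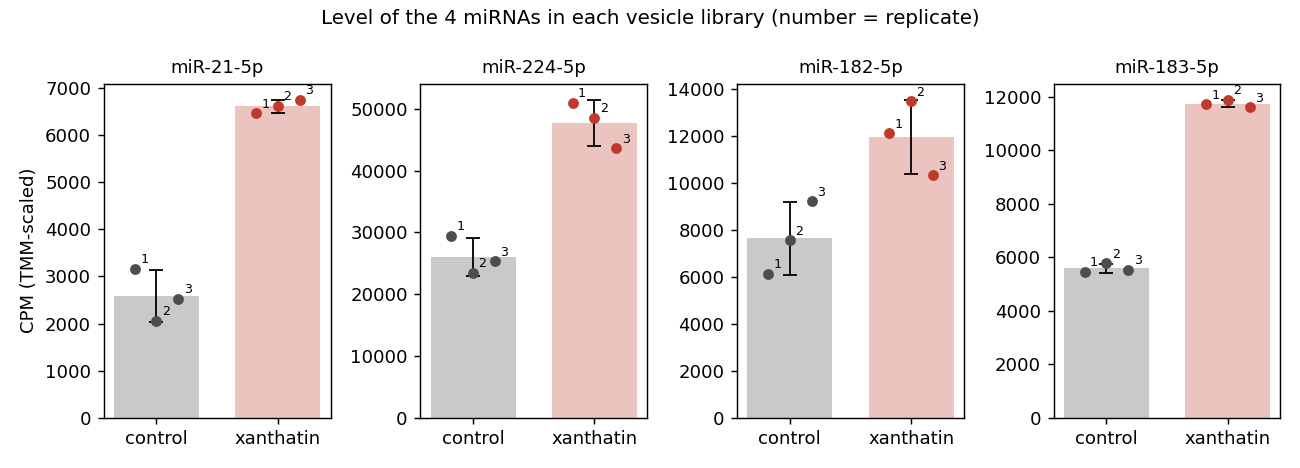
Level of each miRNA in CPM (TMM-scaled, linear axis from 0) in the 3 control and 3 xanthatin libraries; points are libraries with their replicate number, bars are group means and error bars are 1 SD. miR-183-5p shows 2 tight groups at 5591 and 11753 CPM, while for miR-182-5p xanthatin replicate 3 (10319 CPM) stands close above control replicate 3 (9221 CPM).

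Within the table the changes of the 4 miRNAs were moderate in size, and their SEs of 0.11 to 0.19 lay below the median SE. A low SE did not make the call of miR-182-5p stable, since it held under 6 of 21 alternatives. Of the 254 tested miRNAs, 48 had a larger log2 fold change than miR-21-5p, of which 23 were called, and 81 had a larger one than miR-182-5p, of which 31 were called. The median log2 fold change of all tested miRNAs was -0.16, and the median SE was 0.59. By adjusted p, miR-183-5p ranked 9, miR-224-5p 19, miR-21-5p 25 and miR-182-5p 74 among the tested miRNAs.

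**Figure D2:**
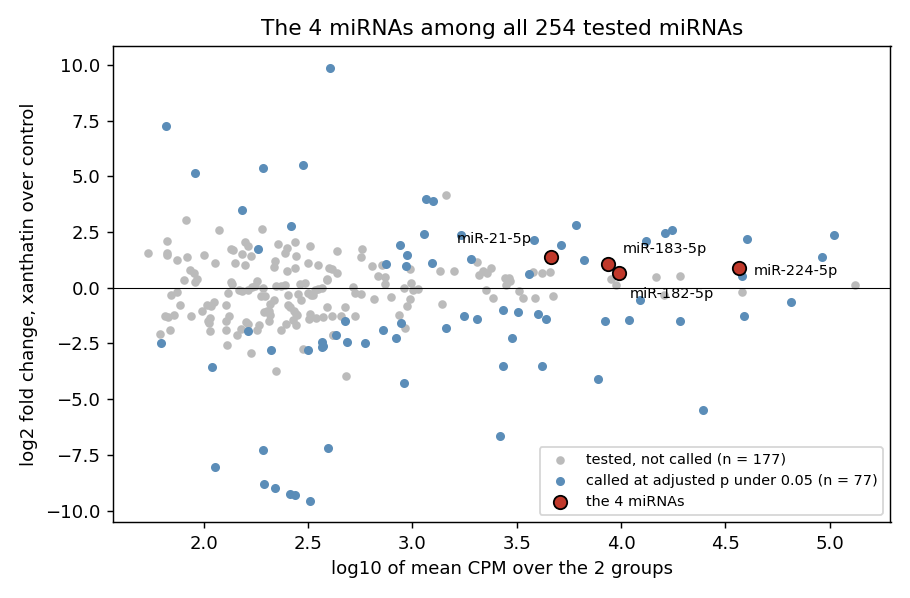
Log2 fold change of xanthatin over control against the log10 of the mean CPM of both groups for the 254 tested miRNAs; blue points were called by edgeR at an adjusted p under 0.05 (77), grey points were not (177), and red points are the 4 miRNAs. The 4 stand among the abundant miRNAs, with log2 fold changes of 0.65 to 1.36, well inside the range of the less abundant ones.

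The size of the rise depended on what a library was scaled to. As an unscaled share of all miRNA counts, miR-21-5p took 0.290% ± 0.055 in control and 0.587% ± 0.012 in xanthatin libraries (SD, n = 3 each), and miR-224-5p took 2.93% ± 0.27 and 4.24% ± 0.35. The share of miR-183-5p was 0.630% ± 0.035 and 1.04% ± 0.02. For these miRNAs the groups did not overlap, and the two-sided exact permutation test gave p = 0.1 each (adjusted over the 4 miRNAs 0.133), the smallest p that 3 against 3 allows. The share of miR-182-5p did overlap, at 0.865% ± 0.212 and 1.06% ± 0.15 (exact permutation p = 0.3). Control replicate 3 held 1.08% (exact Clopper-Pearson 95% interval 1.005 to 1.17) and xanthatin replicate 3 held 0.908% (0.868 to 0.951), so control replicate 3 was above xanthatin replicate 3 by more than counting error. The 4 miRNAs together took 4.72% ± 0.32 of the miRNA counts in control and 6.94% ± 0.49 in xanthatin libraries. On the authors' TPM scale, whose total is larger than the miRNA counts, miR-21-5p was at 22.5, 16.4 and 20.2 TPM in control and 47.3, 50.0 and 45.3 TPM in xanthatin libraries. miR-182-5p again overlapped on that scale, at 43.6, 60.3 and 73.7 TPM in control and 88.6, 101.7 and 69.2 TPM in xanthatin libraries.

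**Figure D3:**
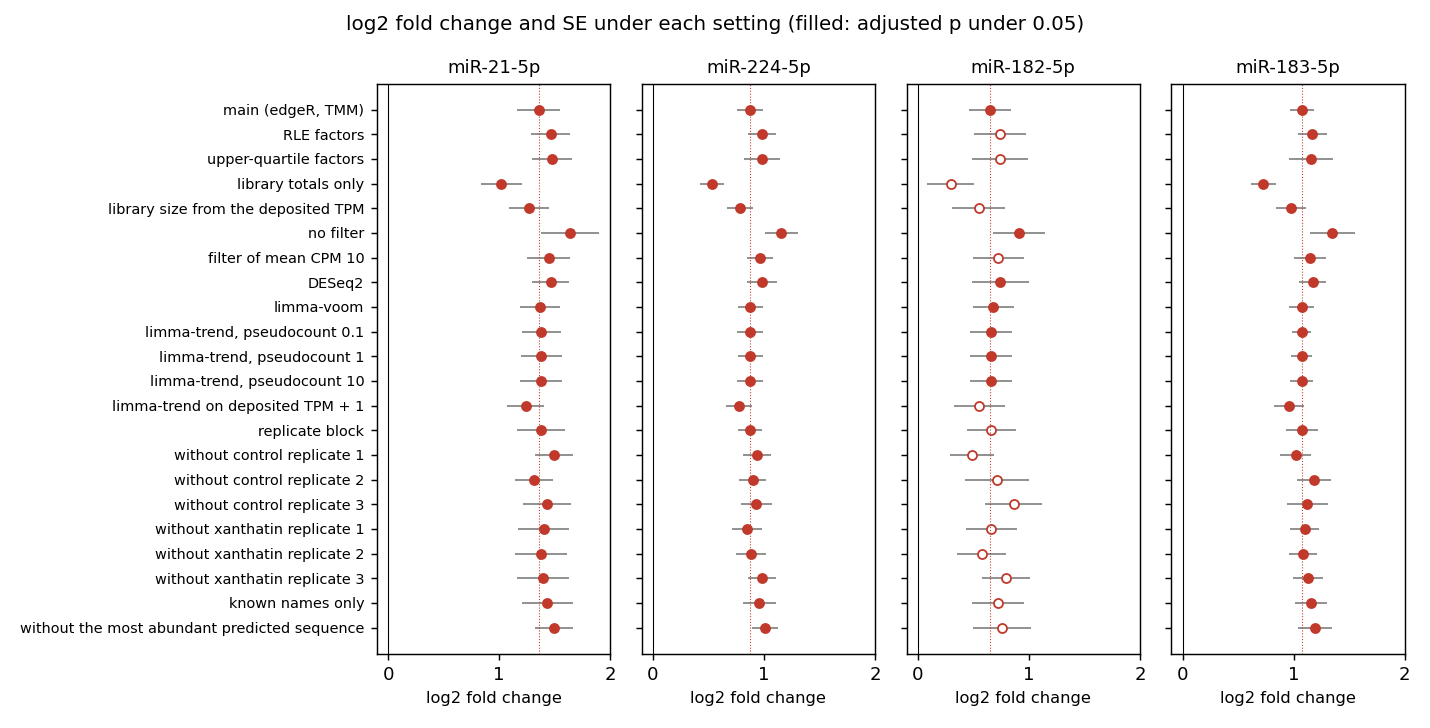
Log2 fold change (points) and SE (bars) of each miRNA under the main fit and 21 alternatives, with filled points where the adjusted p was under 0.05; the dotted line is the value of the main fit. miR-21-5p, miR-224-5p and miR-183-5p were called under all 21 alternatives, miR-182-5p under 6, and no alternative turned a direction.

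Ratios between the 4 miRNAs inside one library use no scaling, and they show how alike the changes were. miR-21-5p over miR-224-5p was 0.107, 0.0878 and 0.0998 in the controls and 0.127, 0.136 and 0.155 in the xanthatin libraries. This was the one ratio of 6 whose groups did not overlap, with a log2 difference of 0.50 (SE 0.12, two-sided exact permutation p = 0.1, adjusted over the 6 ratios 0.36). miR-21-5p over miR-183-5p, in contrast, was 0.578, 0.357 and 0.457 in the controls and 0.552, 0.556 and 0.581 in the xanthatin libraries, groups that overlapped (log2 difference 0.31, SE 0.20, exact permutation p = 0.3).

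The cluster partners miR-182-5p and miR-183-5p stood at 1.12, 1.31 and 1.67 to 1 in control and at 1.03, 1.13 and 0.888 to 1 in xanthatin libraries. miR-182-5p was thus the more abundant partner in all 3 controls and in 2 of 3 xanthatin libraries. The log2 difference of this ratio was -0.41 (SE 0.20, exact permutation p = 0.2, adjusted 0.36), and the groups overlapped at control replicate 1 and xanthatin replicate 2. The remaining 3 ratios had log2 differences of 0.72 (miR-21-5p over miR-182-5p, SE 0.33), 0.22 (miR-224-5p over miR-182-5p, SE 0.26) and -0.20 (miR-224-5p over miR-183-5p, SE 0.13), all with overlapping groups and adjusted p from 0.36 to 0.4. With 3 libraries a group this exact test cannot give a p under 0.1, so it does not show that the rises were equal. Leaving out 1 library moved 4 of the ratios by more than 1.5 times without turning a direction. The log2 difference of miR-21-5p over miR-183-5p was 0.13 without control replicate 2 and 0.48 without control replicate 1. That of miR-224-5p over miR-182-5p was 0.46 without control replicate 1, 0.14 without control replicate 2 and 0.05 without control replicate 3. That of miR-224-5p over miR-183-5p was -0.09 without control replicate 1, and that of miR-182-5p over miR-183-5p was -0.26 without control replicate 3.

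**Figure D4:**
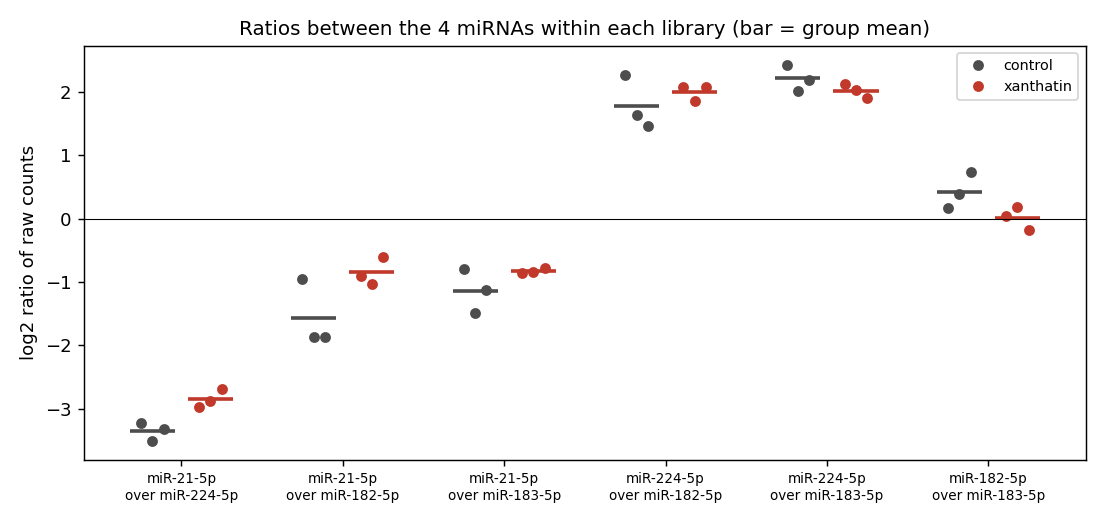
Log2 ratio of the raw counts of 2 miRNAs within each library, for the 6 pairs; grey points are control and red points xanthatin libraries, and bars are group means. Only miR-21-5p over miR-224-5p has groups that do not overlap, and miR-182-5p over miR-183-5p centres on 0.43 in control and 0.02 in xanthatin libraries.

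In the order of levels, miR-224-5p stood first in every library by a wide margin, at 3.56 ± 1.10 times miR-182-5p in control and 4.02 ± 0.35 times in xanthatin libraries (SD, n = 3 each). miR-182-5p and miR-183-5p were neighbours that did not differ beyond their spread in xanthatin libraries, at 11967 ± 1578 and 11753 ± 143 CPM. miR-21-5p stood last in every library, at 0.464 ± 0.111 of miR-183-5p in control and 0.563 ± 0.016 in xanthatin libraries. Mature miRNAs have nearly the same length, so these CPM levels carry no length term, but ligation and amplification can favour some sequences over others.

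The other products of the same precursors were rare. miR-96-5p, the third member of the cluster, had control counts of 2, 0 and 2 and xanthatin counts of 20, 11 and 7, too few for the test. Relative to the TMM-scaled totals, its rate was 3.62 times higher in xanthatin libraries on 4 and 38 counts (exact 95% interval 1.30 to 13.96, counting error only). The precursors of miR-183-5p and miR-96-5p lie within 323 bp of each other, yet miR-183-5p had 1345 counts over the control group. The passenger arm miR-21-3p had 17 counts, all in xanthatin replicate 2. miR-452-5p, whose precursor also lies in GABRE within 1135 bp of that of miR-224-5p, had 16 counts, all in xanthatin replicate 1. Neither was read in control, where 0 of 214281 unscaled counts allows a share of up to 0.0014%. The other 7 names looked for as arms, cluster partners or seed relatives (miR-224-3p, miR-452-3p, miR-182-3p, miR-183-3p, miR-96-3p, miR-590-5p and miR-1271-5p) have no row in the table used here.

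The 4 miRNAs were also set beside other miRNAs reported as raised in hepatocellular carcinoma. Of 16 such names 15 were in the table and 9 could be tested. Of these 9, 0 were called higher by edgeR (2 at an unadjusted p under 0.05), 2 were called lower and 7 did not pass. Over all tested miRNAs, 13.4% were called higher and 16.9% lower. DESeq2 called miR-25-3p and miR-222-3p higher, and limma-voom miR-25-3p. The 9 tested names had a median log2 fold change of -0.57, beside -0.16 over all tested miRNAs. The 2 that were called lower also stand in lists of other cell types. The stromal and endothelial markers include miR-10b-5p, and the red blood cell and serum markers include miR-92a-3p. Summed shares of both lists were lower in xanthatin libraries, but these sums include the 2 miRNAs themselves. miR-10b-5p, linked to invasion, fell from 2263 ± 304 to 643 ± 106 CPM (SD, n = 3 each; log2 fold change -1.81, SE 0.25, edgeR's adjusted p = 0.00306). miR-92a-3p, of a cluster activated by MYC, fell by 0.64 on the log2 scale (SE 0.10, edgeR's adjusted p = 0.00403). That call did not hold without control replicate 2 (-0.55, adjusted p = 0.0524), after upper-quartile scaling (adjusted p = 0.0523) or when low counts were kept (-0.37, adjusted p = 0.118). miR-25-3p, the most abundant of those that did not pass, was at 15712 ± 3086 and 22561 ± 916 CPM (log2 fold change 0.52, edgeR's adjusted p = 0.0513), and it was called under 10 of 21 alternatives (adjusted p over all 21 was 5.06e-04 to 0.447). miR-221-3p, a repressor of the cell cycle inhibitor p27, had control counts of 172, 19 and 116 and xanthatin counts of 611, 720 and 464, and miR-222-3p had 39, 41 and 33 against 120, 327 and 172. Their log2 fold changes of 1.16 (SE 0.68, edgeR's adjusted p = 0.232) and 1.03 (SE 0.40, edgeR's adjusted p = 0.0994) lay between those of miR-182-5p and miR-21-5p but were less precise. The names chosen here as other raised miRNAs were picked with earlier results of these data known, and no test over the list was made.

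Of 18 miRNAs reported as lowered in hepatocellular carcinoma, 10 were tested, of which 2 were called higher and 1 lower, beside 13.4% and 16.9% of all tested miRNAs, with a median log2 fold change of 0.22. let-7c-5p, of the let-7 family that represses growth-promoting transcripts, rose by 2.12 on the log2 scale (SE 0.21, edgeR's adjusted p = 9.27e-04), from 4950 ± 1307 to 21453 ± 2178 CPM, and let-7g-5p rose by 1.90. The hepatocyte miRNA miR-122-5p was the member called lower, with a log2 fold change of -5.48 (SE 0.21). Among 8 miRNAs often used as references in plasma or vesicle work, 7 were tested and 0 were called by edgeR. Of these, 2 were higher at an unadjusted p under 0.05, and DESeq2 called 2 higher (miR-191-5p and miR-25-3p). The 7 tested references had a median log2 fold change of 0.52, beside -0.16 over all tested miRNAs. The most abundant of these, miR-423-5p, was at 40300 ± 4841 and 35616 ± 1333 CPM (log2 fold change -0.18, SE 0.11). Other references had log2 fold changes of the size of the 4 miRNAs without passing the test, at 1.10 (SE 0.66) for miR-103a-3p, 0.86 (SE 0.98) for miR-93-5p and 0.65 (SE 0.26) for miR-191-5p. In the other direction, miR-484 was at -0.78 (SE 0.51) and miR-423-3p at -0.32 (SE 0.18), also without passing the test.

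The miRNAs whose levels over the 6 libraries were most like those of the 4 were found by a measure of likeness. It was taken as the root mean square difference between log2(CPM + 1) profiles, each centred on its own mean, against the 177 other tested known miRNAs. For miR-21-5p the nearest were let-7b-5p (0.23), let-7d-5p (0.25) and miR-183-5p (0.25), where the median over all compared was 1.33. The profile of let-7b-5p was at 56134, 54406 and 42474 CPM in control and 143893, 116431 and 136027 CPM in xanthatin libraries. miR-224-5p was nearest to miR-106b-3p (0.16), miR-183-5p (0.17) and miR-100-5p (0.18), and miR-183-5p in turn to miR-224-5p (0.17), let-7b-5p (0.22) and let-7d-5p (0.22). miR-182-5p was nearest to miR-128-3p (0.20), miR-125a-5p (0.21) and miR-106b-3p (0.23), and not to its cluster partner miR-183-5p. miR-128-3p was at 1528, 1314 and 2542 CPM in control and at 2713, 3172 and 2483 CPM in xanthatin libraries. Like miR-182-5p it was highest of the controls in replicate 3 and lowest of the xanthatin libraries in replicate 3. It was picked for its likeness over these same 6 libraries, so the shared pattern is no separate result. miR-125a-5p was lowest of the xanthatin libraries in replicate 1, and miR-106b-3p was highest of the controls in replicate 1.

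Summed levels of 3 marker lists differed between the groups, against the direction of the 4 miRNAs. Of 8 listed stromal and endothelial markers, 7 were in the table and 4 were tested, of which 3 were called lower. Over all tested miRNAs, edgeR called 16.9% lower and 13.4% higher. miR-143-3p fell by 4.26 on the log2 scale (SE 0.54) and miR-10b-5p by 1.81, and miR-127-3p had control counts of 32, 91 and 62 and xanthatin counts of 0, 3 and 0. Summed, the listed markers took 0.543% to 0.649% of the counts in control and 0.0627% to 0.0880% in xanthatin libraries. Of 6 red blood cell and serum markers, 4 were in the table and 2 were tested, and both fell (8.95% to 10.8% against 4.25% to 4.83% of counts, most of it miR-92a-3p). Of these miR-486-5p fell by 3.52 on the log2 scale (SE 0.33). The defining marker miR-451a had control counts of 1, 3 and 2 and xanthatin counts of 1, 9 and 0. Also untested, miR-16-5p went the other way, with control counts of 4, 4 and 2 and xanthatin counts of 3, 29 and 31. In CPM it was at 41.1 ± 12.8 and 102 ± 80.6 (SD, n = 3 each). Of 4 white blood cell and platelet markers, 2 were in the table and none was tested, miR-142-5p and miR-150-5p, with at most 11 counts in any library. Of 6 hepatocyte markers, 5 were tested, of which 2 were called lower and 1 higher. miR-122-5p fell by 5.48 on the log2 scale (SE 0.21) and miR-148a-3p by 1.29 (SE 0.17), while miR-192-5p rose by 1.22 (SE 0.34, edgeR's adjusted p = 0.0399). That rise did not pass without control replicate 1 or without any one xanthatin library (adjusted p = 0.0823 to 0.0943), nor with upper-quartile factors (0.0556) or library totals only (0.0791). The 2 that were not called went apart. Log2 fold changes were 1.67 for miR-194-5p (SE 1.22, edgeR's adjusted p = 0.338) and -2.09 for miR-483-3p (SE 0.64, edgeR's adjusted p = 0.0520). The summed share of the hepatocyte markers went from 10.8% to 13.7% in control to 2.71% to 3.27% in xanthatin libraries. Most of this sum was miR-122-5p and miR-148a-3p, so it does not show that the listed markers moved together. The part that these shares, the serum in the medium or the depth of the libraries have in the rise of the 4 miRNAs was not tested.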

How the data were processed

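Per the file headers, the authors deposited a count and a TPM value per miRNA name and library. The deposited counts were whole numbers, not normalised. In each library the deposited TPM was proportional to the count whatever the miRNA's length. Its total exceeds the sum of miRNA counts and is not defined in the sources used here. Per the submitters' processing notes, hg38 was the build, with aligner, miRNA database and counter not given in the sources used here. Per the labels' protocols, vesicles were pelleted at 120000xg for 70 min and RNA of 18 to 30 nt was selected. miR-199a-3p and miR-199b-3p stand in 1 joint row of the table, which was used for the listed name.

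All 1007 rows were fitted together with edgeR 4.0.16 (R 4.3.3): default count filter (minimum count 10), TMM, quasi-likelihood F test on group, Benjamini-Hochberg adjustment over 254 tested miRNAs, threshold 0.05. Each SE was derived from the F statistic (absolute log2 fold change over its square root). Ratios and shares were compared by two-sided exact permutation tests. Intervals and floors (3 counts) cover counting error only, since reads carry no molecular identifiers.

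Alternatives were other scalings, filters and tests (DESeq2 1.42.0, limma 3.58.1), a replicate block, leaving out each library, and leaving out predicted sequences. The members and lists were chosen with earlier results of these data known. Named miRNAs were the 4, their listed arms, partners and seed relatives, and the called and the 2 most abundant of each list. Also named were the 3 most alike to each of the 4. Added after their values were seen were miR-221-3p, miR-222-3p, miR-191-5p, miR-103a-3p, miR-93-5p, miR-484, miR-423-3p, miR-451a, miR-16-5p, miR-194-5p and miR-483-3p.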

Additional observations from a re-analysis of the deposited data

How the results depend on the processing

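miR-21-5p, miR-224-5p and miR-183-5p kept their direction and their call under all 21 alternatives, with log2 fold changes of 1.02 to 1.64, 0.53 to 1.16 and 0.73 to 1.35; the lowest came with library totals only and the highest with no count filter. miR-182-5p kept its direction under all 21. It kept its call under 6, which were no count filter, DESeq2, limma-voom and limma-trend on CPM at pseudocounts of 0.1, 1 and 10. Its log2 fold change was 0.74 with RLE factors (adjusted p = 0.0517) and with upper-quartile factors (0.0690), 0.30 with library totals only (0.342), 0.55 with the library size from the deposited TPM (0.125) and 0.55 with limma-trend on TPM (0.0980). It was 0.72 with a filter of mean CPM 10 (adjusted p = 0.104), 0.72 with known names only (0.0534) and 0.76 without the most abundant predicted sequence (0.0664), and 0.49 to 0.86 with one library left out; the cause was not tested. The median of the miRNAs tested in the main fit moved by -0.33 with library totals only and by 0.11 with RLE factors, relative to TMM.

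The number called higher was 34, but 22 with library totals only, 60 with DESeq2, 22 with known names only and 22 to 30 with one library left out (22 without xanthatin replicate 1 or 3). The number called lower was 43, but 60 with library totals only, 54 with DESeq2, 27 with known names only, where fewer miRNAs were tested, and 31 to 41 with one library left out. The log2 differences of the 6 ratios between the 4 miRNAs kept their signs when any library was left out, within 1 SD (of the log2 ratio between libraries of a group) of the values with all libraries. The range was 0.42 to 0.57 for miR-21-5p over miR-224-5p and 0.56 to 1.02 for miR-21-5p over miR-182-5p; for the other 4 ratios the values that moved most stand beside the result.

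With the replicate number as a block, 21 miRNAs were called higher and 33 lower, miR-182-5p was at 0.66 (adjusted p = 0.112) and miR-192-5p at 1.32 (0.0715), while the other 3 miRNAs kept their calls. The deviations of same-numbered libraries correlated at 0.09, -0.08 and -0.14, and not every library correlated best with its own number, so the numbers were not taken to pair the samples. Alternatives for 12 named miRNAs outside the 4 were chosen after seeing the data. For rare partners, 3 counts equal 34.7 to 39.9 CPM in a control library and 12.5 to 16.7 CPM in a xanthatin library.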

Other observations

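The 4 miRNAs are poor in G and C, and so were most known miRNAs called higher when the 4 and the let-7 names are counted. Among the 160 tested known names with a RefSeq sequence, the median G and C content was 40.9% in the 20 called higher, 54.5% in the 27 called lower and 52.4% in the 113 not called. Of the 37 names with at most 45% G and C, 14 were called higher and 6 lower, with a median log2 fold change of 0.65. Of the other 123 names 6 were called higher and 21 lower, with a median of -0.29. The 4 miRNAs are among the 14, and this split was not repeated without them and the let-7 names. Without the 4 miRNAs and the let-7 names, which share most of their sequence, the median G and C content was 47.6% (9 called higher), 54.5% (27 called lower) and 52.9% (111 not called). Of those called higher, the 4 and the let-7 names included, 15 of 20 began with U (75.0%). This compares with 12 of 27 called lower (44.4%) and 53 of 113 not called (46.9%). All 4 miRNAs begin with U, and the count was not repeated without them and the let-7 names. The split at 45% was chosen after the values were seen, sequences of one family are not independent, and no test was made.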
